A study of Mus musculus with 12 samples.

Results

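The 9 genes described here encode receptor chains for interleukin-4 (IL-4) and its close relatives, feedback inhibitors of cytokine signaling, and known targets of IL-4 in mouse B cells. They were taken by name, as the rows of the count table whose Ensembl identifier maps to Il4ra, Il2rg, Il13ra1, Cish, Socs1, Socs2, Socs3, Il2ra or Fcer2a. Earlier results of these data were known when the names were chosen. All 9 were found among the 37991 rows of the table, and all 9 were among the 13538 genes with enough counts to be tested.

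Mice without Runx1 in mature B cells (Runx1 c-k/o) and Cre-only controls gave splenic resting B cells, and their RNA was sequenced before culture and 3 h into culture with IL-4 plus anti-IgM, in 3 samples per group and 12 in all. RUNX1 is a transcription factor of the blood lineages, and the comparisons ask how its loss alters gene expression in resting B cells and in the first hours of activation. The mice were 8 weeks old by the labels and C57B6 by the study's methods. Both genotypes carried the CD23-iCre transgene, so the controls had the recombinase too. Runx1 c-k/o mice carried in addition the Runx1 fl/fl alleles, in which loxP sites flank exon 4. The transgene is driven by the promoter of CD23, which is the gene Fcer2a itself, and is first active at the transitional stage of B cell development, so deletion precedes the mature resting stage. The cells were purified by negative selection that also removes CD43+ activated B cells. The study describes 3 biological replicates for each cell type, but the labels do not say whether samples came from separate animals. The p-values thus measure only the spread between these samples. As anti-IgM and IL-4 were given together, with no culture without them, the effects of IL-4, of anti-IgM and of 3 h in culture cannot be told apart.

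IL-4 binds IL-4Rα (Il4ra), which pairs with the common γ-chain (Il2rg) in lymphocytes or with IL-13Rα1 (Il13ra1) in other cells. The receptor acts through JAK kinases and STAT6, which moves to the nucleus and binds DNA at TTC and GAA separated by a short spacer. Targets in B cells include CD23 (Fcer2a), the low-affinity receptor for IgE, and Socs1. CISH and the SOCS proteins are made in response to cytokines and limit signaling by JAKs and receptors. Cish and the IL-2 receptor α-chain gene (Il2ra, CD25) are classical targets of STAT5.

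The promoter windows that hold a match to a STAT or RUNX motif are shown first, since members differ in whether they hold one. The windows are those of RefSeq, 300 bases around each start site (250 before and 50 after), and were placed in NCBIM37 (mm9), the build of the count table, by a unique exact match. Windows were found for 8 of the 9 members and for 3 start sites of Fcer2a. Coordinates are those of NCBIM37, sequences run 5′ to 3′ along the strand of the gene, and the capitals mark the motif. A match is a run of letters and was not tested for binding.
Cish, chr9:107198985-107199014, plus strand, in an exon of 1 of 6 annotated transcripts, with TTCNNNGAA at the RefSeq start site and again 11 bases after it: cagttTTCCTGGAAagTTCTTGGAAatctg
Socs3, chr11:117830800-117830859, minus strand, outside exons, with TTCNNNGAA 154 bases before the start: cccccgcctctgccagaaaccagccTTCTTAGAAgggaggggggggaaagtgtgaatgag
Fcer2a, chr8:3690995-3691054, minus strand, outside exons, with TTC and GAA separated by 4 bases, the STAT6 spacing, 168 bases before the second start site: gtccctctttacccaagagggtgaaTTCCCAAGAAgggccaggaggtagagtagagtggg
Il2rg, chrX:98463785-98463844, minus strand, with TGTGGT, the core letters bound by RUNX proteins, 227 bases before the start: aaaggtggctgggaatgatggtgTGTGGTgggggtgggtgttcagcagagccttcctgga
Fcer2a, chr8:3694365-3694424, minus strand, before the first start site, with the same letters on the opposite strand (ACCACA) 238 bases before it: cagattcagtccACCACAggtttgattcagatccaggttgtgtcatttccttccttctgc
Both TTC motifs read the same on either strand, and TGTGGT was searched on both. Of 32851 promoter windows of this length, 8.30% hold TTCNNNGAA, 6.95% hold the motif with 4 bases between and 16.8% hold TGTGGT. The windows of Il4ra, Il13ra1, Socs1 and Il2ra and the third window of Fcer2a hold none of these letters. The genes themselves lie at chr7:132695785-132722986 (Il4ra), chrX:98459717-98463594 (Il2rg), chrX:33652105-33711254 (Il13ra1), chr9:107198357-107205115 (Cish), chr16:10783901-10785629 (Socs1), chr10:94847996-94879814 (Socs2), chr11:117827393-117831361 (Socs3), chr2:11564419-11614818 (Il2ra) and chr8:3681737-3694174 (Fcer2a). All 9 are protein-coding genes. Il2rg overlaps a gene model on its own strand, Gm20489, with 0 to 1 counts per sample. Cish overlaps 2 on the other strand, Gm17040 with 0 to 2 counts and Gm17041 with 0.

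Sample totals ranged from 14442251 to 23641552 counts. Values below are CPM, counts relative to the effective library size after TMM normalization, so a value is relative to the rest of the library and not to the cell. In these bulk samples, fewer cells of a type and less RNA per cell cannot be told apart. Replicates are given in the order 1, 2 and 3. Runx1 itself read 83.6, 81.8 and 86.7 CPM in Cre-only resting cells and 101, 95.7 and 103 CPM in Runx1 c-k/o resting cells, and counts over the whole gene do not separate the deleted exon. At 3 h Runx1 was higher in Runx1 c-k/o cells by 0.80 log2 (SE 0.14, edgeR adjusted p = 0.0077), so the transcript does not check the labels.

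A pair of Runx1 c-k/o libraries stood apart from the others of their group, and the results that move most with them are given with and without them. The resting replicate 2 differed from replicates 1 and 3 with a chi-square per gene of 36.1 and 29.4, against 4.85 between those and 3.88 to 5.85 among the Cre-only resting samples. Of the 838 genes that rose at least 4-fold on activation in Cre-only cells, 702 (83.8%) were highest in this library among the 6 resting ones, and their values lay a median of 12.9% of the way (quartiles 9.75% and 16.4%) from the mean of the other resting Runx1 c-k/o samples to the Runx1 c-k/o 3-h mean. The medians of the Cre-only resting libraries, placed in the same way among their own group, were −0.39% to 0.15%, and those of the other Runx1 c-k/o resting libraries, whose reference holds replicate 2, were −6.95% and −7.17%. The 1616 genes that fell at least 4-fold in Cre-only cells were spread more widely in replicate 2, with a median of 6.68% of the way and quartiles of −24.6% and 27.1%, and 35.5% of them were lowest and 23.3% highest in it. The 3-h replicate 1 differed from replicates 2 and 3 with a chi-square per gene of 57.6 and 80.6, against 13.4 between those, and its TMM factor was 0.886. B cell markers summed to 16875 to 17651 CPM in Cre-only and 17997 to 20729 CPM in Runx1 c-k/o resting cells. At 3 h they summed to 9581 to 9998 CPM in Cre-only cells. In Runx1 c-k/o cells at 3 h the sums were 14544 CPM in replicate 1, which stood apart, and 10081 and 9137 CPM in replicates 2 and 3.

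Compared per length as RPKM, the 9 genes span more than 3 orders of magnitude in resting Cre-only cells. Fcer2a was the highest at 482 ± 13.9 RPKM (SD, n = 3), followed by the receptor chains Il2rg at 84.3 ± 3.55 and Il4ra at 74.8 ± 3.18 and by the feedback gene Socs3 at 29.2 ± 6.08. The remaining 5 were low, with Socs1 at 1.73 ± 0.45, Il2ra at 1.13 ± 0.17, Il13ra1 at 0.639 ± 0.22, Socs2 at 0.293 ± 0.050 and Cish at 0.137 ± 0.046 RPKM. No 2 neighbours in this order overlapped in their 3 values. The low end depends on the gene model: over the longest transcript in place of all exons, Socs2 reads 0.659 RPKM, beside 0.640 for Il13ra1. In Runx1 c-k/o resting cells the first 4 kept their places, at 437 (Fcer2a), 93.4 (Il2rg), 63.9 (Il4ra) and 37.5 RPKM (Socs3), and the next 4, Il2ra, Socs1, Cish and Il13ra1, overlapped from one neighbour to the next.
After 3 h the order was redrawn in its middle. In Cre-only cells Il2ra stood at 66.6 RPKM, beside Il4ra at 72.2, while Socs1 (20.2) and Cish (17.6), whose values overlapped, had passed Socs3 (8.79). The order within each of these pairs depends on the gene model too. Over the longest transcript Il2ra reads 76.7, 81.6 and 71.7 RPKM and Il4ra 71.5, 73.3 and 73.1. Cish then reads 23.8, 21.1 and 27.4 RPKM and Socs1 16.2, 19.2 and 25.1. Il13ra1 was the lowest at 0.0619 RPKM. In Runx1 c-k/o cells at 3 h Fcer2a (448) and Il2rg (99.7) came first, and Il2ra (62.4) and Il4ra (60.3) overlapped.

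**Figure D1:**
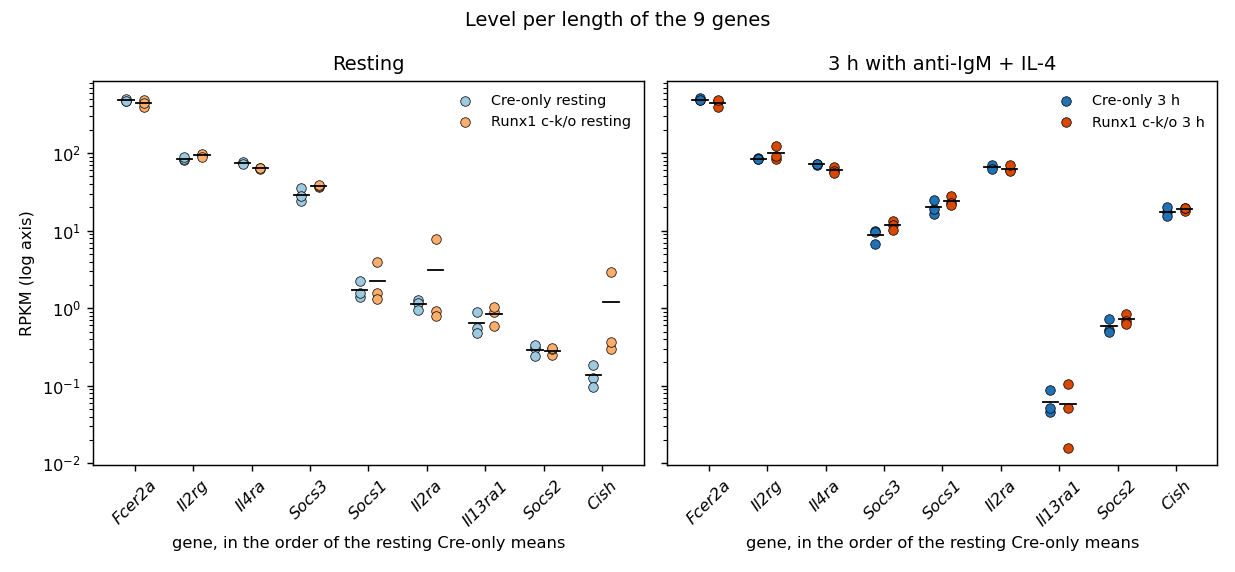
Mean RPKM of the 9 genes (log axis) in each of the 4 groups, resting and 3 h, with the 3 samples as points. Fcer2a, Il2rg and Il4ra stay within a narrow band at all times, whereas Il2ra, Cish and Socs1 climb past Socs3 by 3 h and Il13ra1 drops to the bottom.

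The receptor chains come first. Il4ra, the chain that binds IL-4, read 387, 397 and 365 CPM in Cre-only resting cells and 331, 320 and 331 CPM in Runx1 c-k/o resting cells. At 3 h it read 364, 373 and 372 CPM in Cre-only and 343, 297 and 288 CPM in Runx1 c-k/o cells. Every Runx1 c-k/o sample lay below every Cre-only sample of the same time point. The fitted difference was −0.23 log2 at rest (SE 0.09, 95% interval −0.42 to −0.04, edgeR adjusted p = 0.32) and −0.26 log2 at 3 h (SE 0.09, 95% interval −0.45 to −0.07, adjusted p = 0.16), levels 14.6% and 16.4% lower. Neither passed the threshold after adjustment, and the intervals are for 1 gene without adjustment. Without both libraries that stood apart, Il4ra was called lower at rest (−0.21 log2, edgeR adjusted p = 0.045) and at 3 h (−0.32, 0.0016). With 1 factor of unwanted variation in the fit, it was also called at both times in edgeR (−0.25, adjusted p = 0.033, and −0.30, 0.0095) and in DESeq2 (−0.26, 0.0068, and −0.26, 0.0046). Of 21 alternative settings, 3 called Il4ra at rest and 4 at 3 h, the fourth being the fit without replicate 1 of the Runx1 c-k/o 3-h cells (0.049).
On activation the fitted change of Il4ra was −0.05 log2 in Cre-only (SE 0.09, edgeR adjusted p = 0.61) and −0.08 log2 in Runx1 c-k/o cells (adjusted p = 0.41). It was called lower in some alternatives, by −0.33 log2 in either genotype with a factor of unwanted variation in DESeq2 (adjusted p = 0.0079 and 0.010), and by −0.20 log2 in Runx1 c-k/o cells without both libraries that stood apart (edgeR, 0.0063). The factor of unwanted variation itself differed by time, at 0.15 to 1.04 in resting and −2.08 to −0.37 in 3-h libraries. Fits with it cannot cleanly separate activation from the factor. Summed marker genes of B cell subsets also lay apart by genotype at rest. The markers of marginal zone B cells summed to 1247 to 1555 CPM in Cre-only and 1774 to 1916 CPM in Runx1 c-k/o resting cells, mostly Cr2, the complement receptor CD21, and none of the 6 tested was called by genotype. At 3 h these sums also lay apart, at 2346 to 2635 CPM in Cre-only and 2679 to 3350 CPM in Runx1 c-k/o cells. Of the 6 genes, 2 lay wholly higher and 2 wholly lower in Runx1 c-k/o cells then, where 21.8% of all genes did not overlap. The follicular B cell markers matched were 2, Fcer2a and Cd55, and summed to 1762 to 1877 and 1387 to 1665 CPM at rest. Of these, Cd55 lay lower in all Runx1 c-k/o samples and Fcer2a overlapped. At 3 h the follicular sums overlapped, at 1105 to 1167 CPM in Cre-only and 938 to 1121 CPM in Runx1 c-k/o cells. They were then nearly all Fcer2a, which alone read 1089 to 1152 and 893 to 1110 CPM. As Fcer2a is a member, the follicular sums are no separate measure of a subset beside it. The part of these subsets in the values of Il4ra and Fcer2a was not tested.

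Il2rg, the γ-chain that the receptors for IL-2, IL-4, IL-7, IL-9, IL-15 and IL-21 share, read 194, 200 and 210 CPM in Cre-only resting cells and 223, 233 and 213 CPM in Runx1 c-k/o resting cells. The groups did not overlap, but the difference of 0.15 log2 did not pass the test (SE 0.12, edgeR adjusted p = 0.67). At 3 h the values were 207, 200 and 198 CPM in Cre-only and 292, 201 and 220 CPM in Runx1 c-k/o cells. The highest of these came from the library that stood apart, and the difference of 0.24 log2 (adjusted p = 0.34) was 0.09 log2 without it. Activation changed Il2rg by 0.00 and 0.09 log2 in the 2 genotypes, with neither called. This depends on the model: with a factor of unwanted variation Il2rg was called lower at 3 h, by −0.42 log2 in Cre-only (edgeR adjusted p = 0.0024) and by −0.36 log2 in Runx1 c-k/o cells (0.0089). As that factor itself differed between rest and 3 h, these fits cannot cleanly separate it from activation.

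Il13ra1, the chain that makes the second form of the IL-4 receptor and also binds IL-13, was near the limit of detection. Its raw counts were 43, 31 and 53 in Cre-only resting and 37, 52 and 58 in Runx1 c-k/o resting cells, and 4, 5 and 3 and then 3, 6 and 1 at 3 h. In CPM it read 2.07, 1.77 and 3.28 and then 0.173, 0.327 and 0.191 in Cre-only, and 2.17, 3.36 and 3.85 and then 0.193, 0.394 and 0.0589 in Runx1 c-k/o cells. All resting samples lay above all 3-h samples, and several of the 3-h values sit near the floor of 3 counts, which is 0.127 to 0.208 CPM. Il13ra1 fell on activation by 3.36 log2 in Cre-only (SE 0.46, edgeR adjusted p = 2.7e-05) and fell by 3.84 log2 in Runx1 c-k/o cells (SE 0.47, adjusted p = 1.0e-05). From the summed counts the level at rest was 10.5 times that at 3 h in Cre-only (95% interval 5.82 to 20.9) and 14.7 times in Runx1 c-k/o cells (7.79 to 31.4), intervals that cover counting error only. Genotype moved it by 0.40 log2 at rest (adjusted p = 0.67) and −0.08 log2 at 3 h (0.96).
Beside Il13ra1 moved the markers of myeloid cells, in which this chain is known to be expressed. All 8 were tested and 6 fell in each genotype, where 36.4% (Cre-only) and 36.6% (Runx1 c-k/o) of all tested genes were called lower. The 8 summed to 251 to 305 CPM at rest and 17.7 to 25.4 CPM at 3 h in Cre-only, and 216 to 424 and 19.3 to 46.9 CPM in Runx1 c-k/o cells. Most of the Cre-only resting sum was 1 gene, Csf1r, the receptor of the macrophage growth factor M-CSF. It went from 185 to 6.75 CPM in Cre-only cells, and no marker of the list was at 0 in all 12 samples. Marker sums of other cell types also fell in Cre-only cells. Among them were NK cells (8.77 to 12.5 CPM at rest, 1.85 to 4.75 CPM at 3 h) and B cells (16875 to 17651 and 9581 to 9998 CPM). The sums of marginal zone B cells and dendritic cells did not fall. The part of any of these cells in the change of Il13ra1 was not tested. Among the genes whose log2 CPM followed Il13ra1 most closely over the 12 samples were Aatk (Pearson r = 0.989) and Clec4a3 (0.987), the latter a lectin of myeloid cells. Such likeness is a description, as all 12 samples share the step from rest to 3 h.

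**Figure D2:**
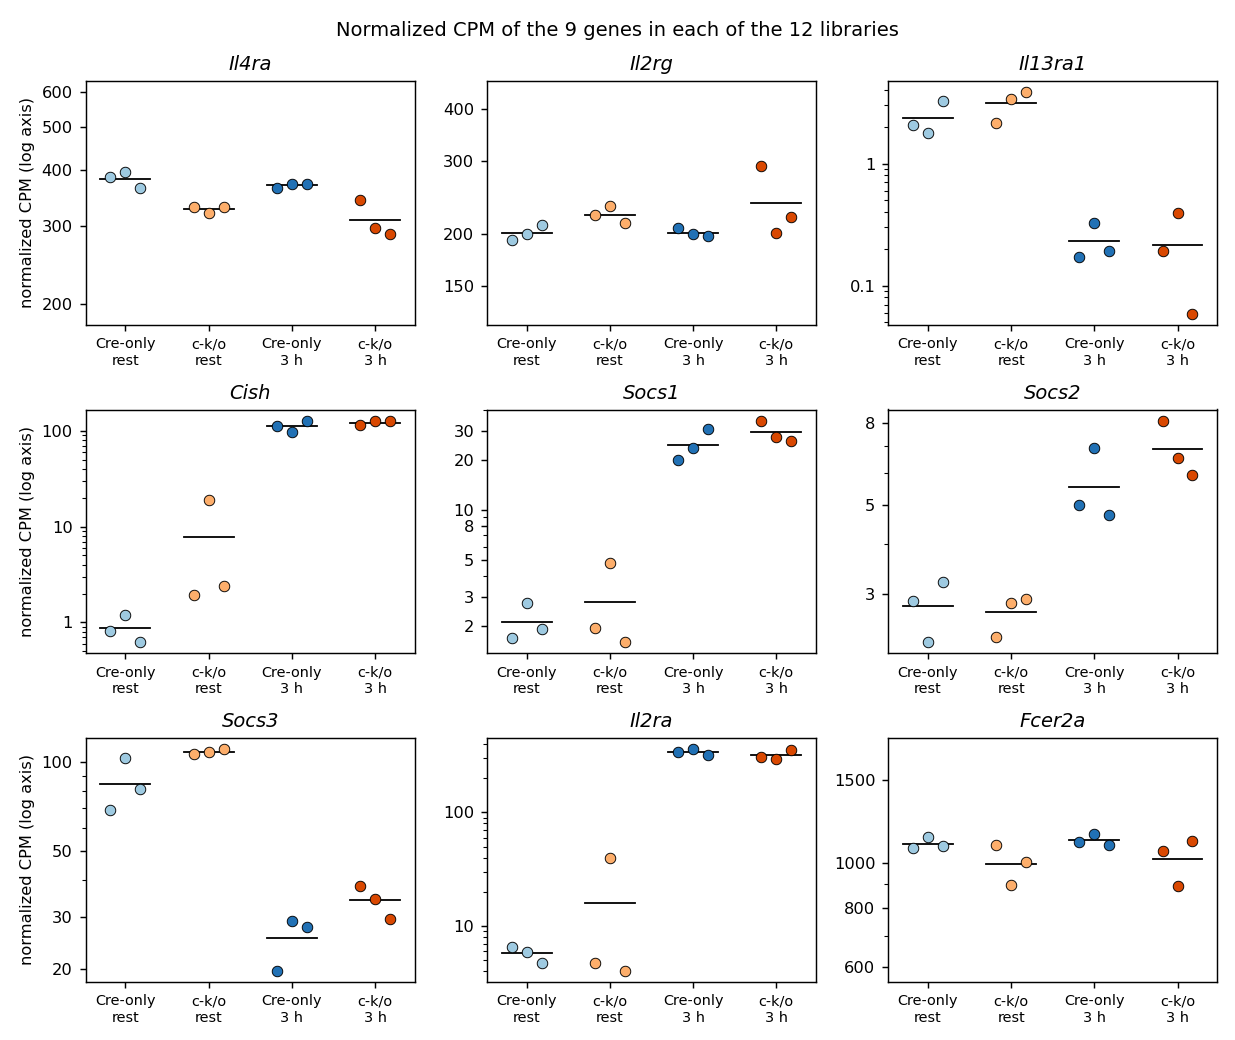
Normalized CPM of each of the 9 genes in all 12 samples (log axis, 1 panel a gene), with lines at the group means. Il4ra is lower and Socs3 higher in every Runx1 c-k/o sample than in every Cre-only sample of the same time, and 1 resting Runx1 c-k/o library is far above the rest for Cish and Il2ra.

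Among the feedback genes, Cish moved most. CISH binds activated cytokine receptors and limits STAT5 signaling. In Cre-only resting cells Cish was close to silent, at 0.819, 1.20 and 0.620 CPM (17, 21 and 10 counts). In Runx1 c-k/o resting cells it read 1.93, 19.1 and 2.39 CPM (33, 295 and 36 counts). All 3 Runx1 c-k/o samples lay above all 3 Cre-only samples, and replicate 2, the library that stood apart, was 8.82-fold above the mean of the other samples of its group. The fitted difference was 3.13 log2 (SE 0.81, 95% interval 1.37 to 4.89) and missed the threshold (edgeR adjusted p = 0.10). Without replicate 2 it was smaller and called, at 1.28 log2 (95% interval 0.70 to 1.86, edgeR adjusted p = 0.045), and without both libraries that stood apart it was 1.28 log2 (0.028). The mean of replicates 1 and 3 was 2.46-fold that of Cre-only cells. Of 21 alternatives, these 2 fits included, 5 called the difference. Among them were also the Wald test of DESeq2 with all samples (3.13 log2, adjusted p = 0.0033) and the fit without replicate 1 (3.60 log2, edgeR adjusted p = 0.033). Cish is among the genes the study itself called from these samples, so its direction here is not independent evidence.
At 3 h Cish read 112, 98.9 and 129 CPM in Cre-only and 115, 127 and 126 CPM in Runx1 c-k/o cells, overlapping groups that differed by 0.11 log2 (SE 0.51, adjusted p = 0.92). Cish thus rose 127-fold in Cre-only cells (6.99 log2, SE 0.77, adjusted p = 4.0e-06) and 15.8-fold in Runx1 c-k/o cells (3.98 log2, SE 0.61, adjusted p = 7.0e-05), or by 5.83 log2 in the latter without resting replicate 2. The difference between these rises was −3.01 log2 (SE 0.97) and was not called (edgeR adjusted p = 0.65). It was −1.16 log2 without that replicate (0.28) and −1.10 log2 without both libraries (0.14).

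Socs1, an inhibitor of JAK kinases and a known target of STAT6, read 1.69, 2.73 and 1.92 CPM in Cre-only and 1.93, 4.78 and 1.59 CPM in Runx1 c-k/o resting cells. The groups overlapped, and the highest value was again that of replicate 2. The difference at rest of 0.39 log2 (edgeR adjusted p = 0.72) turned to −0.25 log2 without this library. At 3 h Socs1 read 19.8, 23.4 and 30.6 CPM in Cre-only and 34.4, 27.4 and 25.9 CPM in Runx1 c-k/o cells, also overlapping (0.25 log2, 0.63, and 0.15 log2, 0.92, without replicate 1 of the Runx1 c-k/o cells). Socs1 rose 11.6-fold in Cre-only (3.54 log2, SE 0.33, edgeR adjusted p = 1.1e-06) and 10.6-fold in Runx1 c-k/o cells (3.40 log2, SE 0.33, 1.4e-06), or by 4.05 log2 in the latter without resting replicate 2. The difference between these rises was −0.14 log2 with that replicate and 0.50 log2 without it, and neither was called (edgeR adjusted p = 1.0 and 0.85).

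Socs2, best known for restraining growth hormone signaling, was low throughout. It read 2.89, 2.28 and 3.22 CPM in Cre-only and 2.34, 2.84 and 2.92 CPM in Runx1 c-k/o resting cells, and 5.01, 6.92 and 4.71 and then 8.11, 6.56 and 5.95 CPM at 3 h. The genotypes overlapped at both times (−0.05 log2 at rest, edgeR adjusted p = 0.94, and 0.31 log2 at 3 h, 0.42). Socs2 rose on activation by 0.98 log2 in Cre-only (SE 0.20, edgeR adjusted p = 0.00077) and 1.35 log2 in Runx1 c-k/o cells (SE 0.21, 7.2e-05). In Cre-only cells the call was lost with a factor of unwanted variation in edgeR (0.63 log2, adjusted p = 0.085) and in DESeq2 (0.52 log2, 0.23), a factor that itself differed by time.

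Socs3, a brake on signaling by receptors of the IL-6 family, moved the other way from the rest of its family. It read 69.0, 104 and 81.0 CPM in Cre-only and 106, 108 and 111 CPM in Runx1 c-k/o resting cells, and 19.7, 28.9 and 27.6 and then 38.2, 34.5 and 29.4 CPM at 3 h. Each Runx1 c-k/o sample was above each Cre-only sample of its time point, by a narrow margin. The differences of 0.36 log2 at rest (SE 0.16, edgeR adjusted p = 0.45) and 0.43 log2 at 3 h (SE 0.17, 0.25) did not pass the test. Socs3 fell on activation by 1.74 log2 in Cre-only (SE 0.17, edgeR adjusted p = 1.6e-06) and by 1.67 log2 in Runx1 c-k/o cells (SE 0.17, 2.3e-06), levels 3.34-fold and 3.18-fold lower. The matches to the STAT motif shown above, 2 in the window of Cish and 1 in that of Socs3, thus belong to genes that changed in opposite directions.

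Il2ra, the α-chain of the high-affinity receptor for IL-2, had with Cish the largest fitted rises of the 9 members in both genotypes. In resting cells it read 6.51, 5.92 and 4.77 CPM in Cre-only and 4.69, 39.4 and 4.05 CPM in Runx1 c-k/o samples. Replicate 2 was 9.03-fold above the mean of the other samples of its group, which lay below all 3 Cre-only samples. The difference at rest accordingly went from 1.47 log2 (SE 0.66, edgeR adjusted p = 0.44) to −0.40 log2 without this library (95% interval −0.75 to −0.05, adjusted p = 0.50), and neither was called. At 3 h Il2ra read 340, 361 and 317 CPM in Cre-only and 304, 296 and 353 CPM in Runx1 c-k/o cells, overlapping groups (−0.09 log2, 0.94). It rose 58.8-fold in Cre-only (5.88 log2, SE 0.72, edgeR adjusted p = 1.1e-05) and 19.8-fold in Runx1 c-k/o cells (4.31 log2, SE 0.66, 7.5e-05), or by 6.19 log2 in the latter without replicate 2. The genes most like Il2ra over the 12 samples were Mreg (r = 0.999), Il7r (0.998) and Pkp4 (0.998), and those most like Cish were Slc1a4 (0.997), Tbc1d30 (0.995) and Trib3 (0.994).

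**Figure D3:**
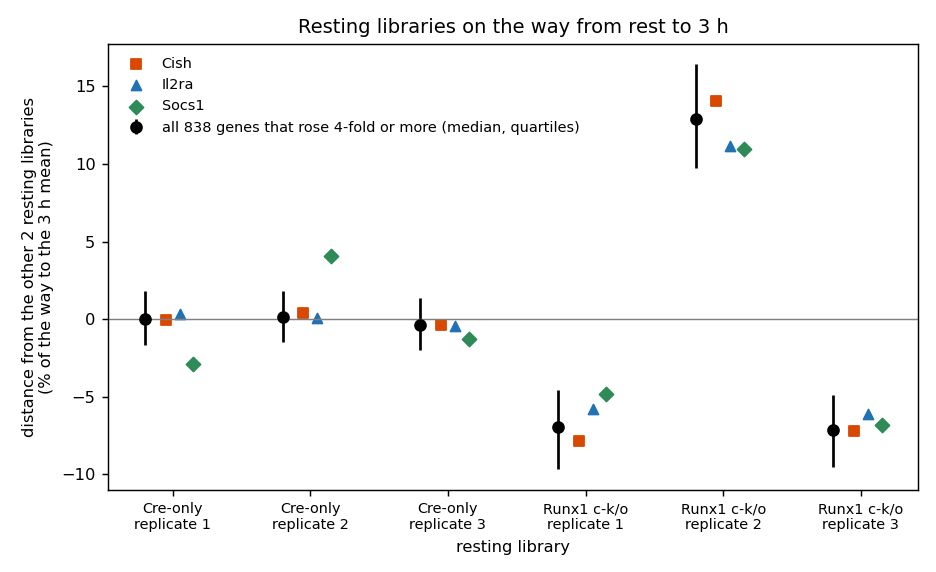
Position of each resting library, in percent of the way from the mean of the other resting libraries of its genotype (0%) to the 3-h mean of that genotype (100%), as the median and quartiles of the 838 genes that rose at least 4-fold, with Cish, Il2ra and Socs1 as points. Runx1 c-k/o replicate 2 lies at a median of 12.9%, and its Cish (14.0%), Il2ra (11.2%) and Socs1 (11%) lie close to that median.

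In replicate 2 of the Runx1 c-k/o resting cells, 3 of the 4 members that rise on activation lay within the quartiles of the 838 rising genes. These 3 are themselves among the 838, and Socs2 is not. Quartiles enclose the middle of a set by definition, so the positions are a description and no result about the members. Cish lay 14.0%, Il2ra 11.2% and Socs1 11% of the way from the other resting samples of their group to the 3-h mean. Il7r (11.1%), Il4i1 (13.6%), Bcl2l1 (13.2%) and Batf (14.3%) also lay within the quartiles. Nfil3 (18.6%) and Ccl22 (22.1%), 2 further genes of the IL-4 response, lay above the quartiles. The remaining member of the 4, Socs2, lay below them at 5.01%. The members other than Cish, Il2ra and Socs1 lay closer to their group in this library, which held 1.07 times the mean of the other samples of its group for Il2rg and 0.855 times for Fcer2a. It held 1.08 times that mean for Socs2, 0.993 times for Socs3, 1.12 times for Il13ra1 and 0.967 times for Il4ra. What sets this library apart was not tested.

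Fcer2a, which encodes CD23, was the most abundant member, and its level was similar in all 4 groups. It read 1074, 1133 and 1085 CPM in Cre-only and 1089, 895 and 1005 CPM in Runx1 c-k/o resting cells, and 1107, 1152 and 1089 CPM and then 1058, 893 and 1110 CPM at 3 h. The genotypes overlapped at both times, with differences of −0.14 log2 at rest (95% interval −0.38 to 0.10, edgeR adjusted p = 0.67) and −0.13 log2 at 3 h (adjusted p = 0.55). Without both libraries that stood apart they were −0.06 and −0.13 log2. Activation moved it by 0.02 and 0.03 log2, neither called. All groups carry the transgene driven by its promoter, and samples without it were not analysed here. The most similar genes followed it less closely than those of other members, with Ivns1abp at r = 0.863, Vav1 at 0.808 and Wdhd1 at 0.803.

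**Figure D4:**
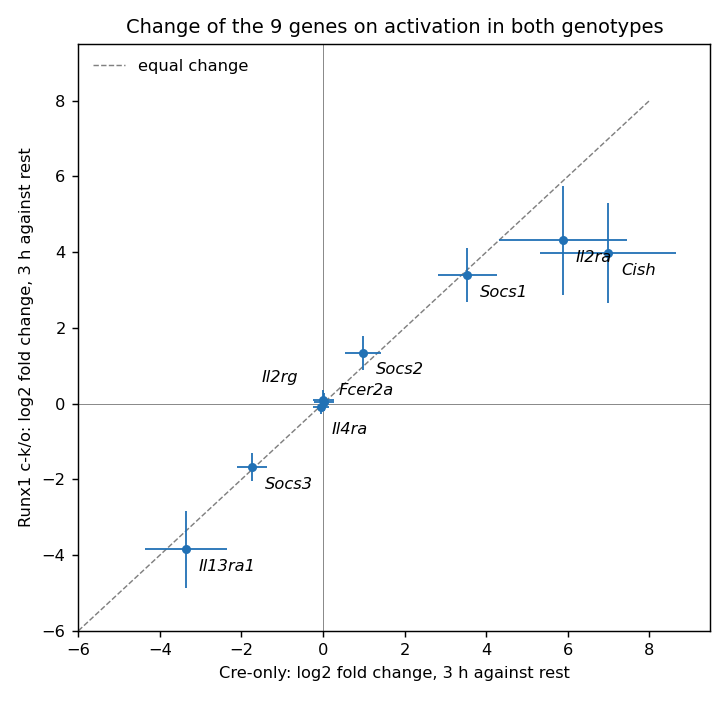
Log2 fold change from rest to 3 h in Cre-only (horizontal) and Runx1 c-k/o cells (vertical), with 95% intervals and a dashed line of equality. Cish, Il2ra, Socs1 and Socs2 rose, Socs3 and Il13ra1 fell, and Il4ra, Il2rg and Fcer2a sit near 0, with Cish the farthest from the line.

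Counted together on activation, 6 of the 9 members passed the test in each genotype, 4 higher (Cish, Socs1, Socs2, Il2ra) and 2 lower (Il13ra1, Socs3). The background is high, since edgeR called 75.0% of all tested genes in Cre-only cells (38.6% higher and 36.4% lower) and 74.3% in Runx1 c-k/o cells (37.7% higher and 36.6% lower), so the share of members is near that of all genes. The median change of the members was 0.02 log2 in Cre-only and 0.09 log2 in Runx1 c-k/o cells, beside 0.03 and 0.00 over all genes. Scaling by library size alone would move all activation changes by −0.12 log2, which turns the sign for Il2rg and Fcer2a and for no called member.

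Counted together by genotype, none of the 9 members passed edgeR's test at rest, where 1.49% of all genes did, and none at 3 h, where 2.77% did. At an unadjusted p under 0.05 there were 4 at rest (Il4ra, Cish, Socs3, Il2ra) and 2 at 3 h (Il4ra, Socs3). DESeq2's Wald test called 1 at rest (Cish) and 0 at 3 h, beside 2.79% and 5.24% of all genes. Without both libraries that stood apart, 2 were called at rest (Il4ra lower, Cish higher) and 1 at 3 h (Il4ra), beside 4.35% and 6.65% of all genes. The 2 genotypes did not overlap for 4 members at rest (Il2rg, Cish and Socs3 higher, Il4ra lower), as was so for 23.7% of all genes, and for 2 at 3 h (Socs3 higher, Il4ra lower), beside 21.8%. The median difference of the members was 0.36 log2 at rest and 0.11 log2 at 3 h, beside 0.03 and 0.01 over all genes. Without both libraries these medians were −0.06 and 0.09 log2, beside −0.01 and 0.00. For a difference between genotypes in the change on activation, edgeR called 0 of 9 members, beside 0.0813% of all genes, and 1 (Cish) had an unadjusted p under 0.05. DESeq2 also called 0, beside 0.613% of all genes. The shares of all genes called by the other fits named above were as follows. With 1 factor of unwanted variation, edgeR called 3.87% at rest and 7.65% at 3 h, DESeq2 4.51% and 9.09%, and on activation edgeR called 65.5% in Cre-only cells and 63.6% in Runx1 c-k/o cells and DESeq2 61.9% in Cre-only cells. Without replicate 1 or 2 of the Runx1 c-k/o resting cells, edgeR called 0.936% and 1.01% at rest, and without replicate 1 of the 3-h cells it called 2.91% at 3 h. The comparisons at rest and at 3 h use different samples but 1 shared estimate of the spread. Whether same-numbered samples come from one animal is not given, so the comparisons are not shown to be independent. Each activation comparison shares its resting samples with a genotype comparison.

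**Figure D5:**
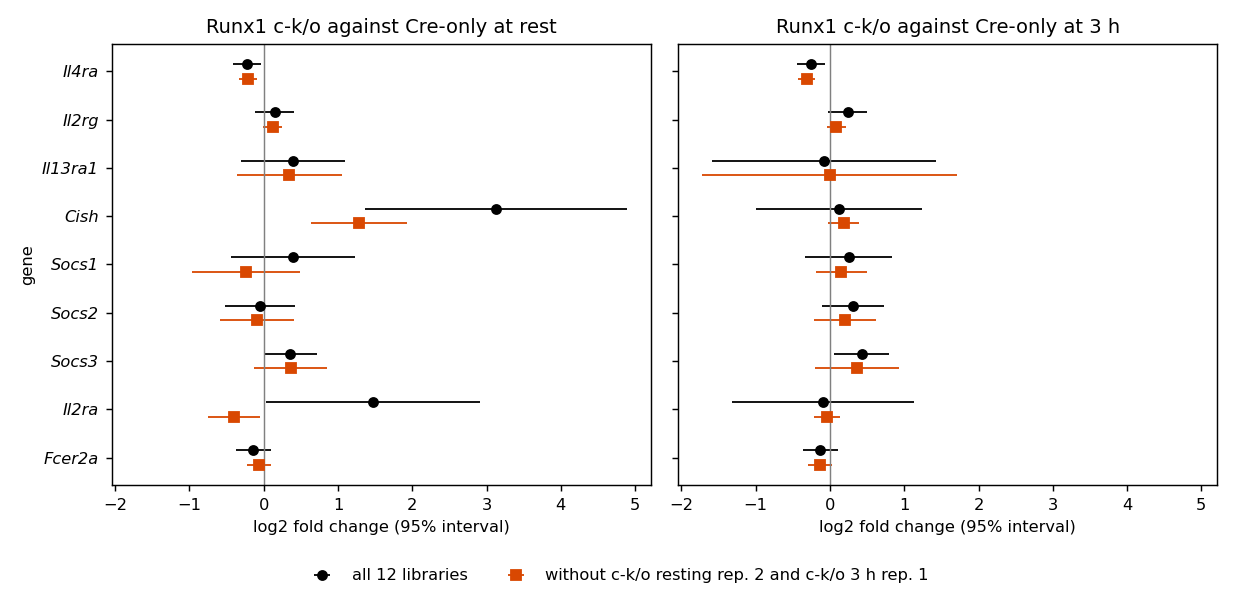
Log2 difference between genotypes (Runx1 c-k/o minus Cre-only) for the 9 genes at rest and at 3 h, with 95% intervals not adjusted for the number of genes, from all 12 libraries and without the 2 libraries that stood apart. The difference of Cish at rest drops from 3.13 to 1.28, that of Il2ra turns from 1.47 to −0.40, and that of Il4ra hardly moves.

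The rest of the pathway was read from lists of genes picked by name, also with earlier results of these data known. Of 14 genes that transmit the IL-4 signal (JAK kinases, STAT6, IRS adaptors, PI3-kinase subunits and phosphatases), 0 were called by genotype at rest in edgeR or by DESeq2's Wald test, and 1 had an unadjusted p under 0.05. Without both libraries that stood apart, 1 was called higher and 1 lower. At 3 h 3 were lower in Runx1 c-k/o cells and 0 higher. Tyk2, a JAK kinase of the interferon, IL-12 and IL-13 receptors, was at 39.6 CPM against 53.0 (−0.42 log2, edgeR adjusted p = 0.041). Pik3cd, the PI3-kinase catalytic subunit p110δ, was at 159 against 221 CPM (−0.48 log2, 0.036), and Ptpn1, the phosphatase PTP1B that acts on JAKs and STAT6, was at 352 against 468 CPM (−0.41 log2, 0.028). The calls for Tyk2, Pik3cd and Ptpn1 were kept in 6, 7 and 11 of 21 alternatives. Without replicate 1 of the Runx1 c-k/o 3-h cells, Tyk2 (−0.30 log2, 0.10) and Pik3cd (−0.39 log2, 0.12) were no longer called. The median of the 14 at 3 h was −0.16 log2, beside 0.01 over all genes, and −0.04 log2 without that replicate. On activation 5 rose and 7 fell in Cre-only cells and 4 rose and 7 fell in Runx1 c-k/o cells. Stat6, the factor downstream of the receptor, rose by 0.75 log2 in Cre-only cells (edgeR adjusted p = 1.4e-06), and Pik3r1, the regulatory subunit p85α, fell by 1.82 log2.

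Of 8 other cytokines and receptor chains of the family, 5 were tested. The transcripts of Il4, Il13 and Il13ra2 were too low to test, and Il13ra2 had 0 counts in all 12 samples. Il9r, the chain that pairs with the γ-chain to bind IL-9, was the member of this list called by genotype. It read 93.8, 95.4 and 176 CPM in Cre-only and 24.1, 24.3 and 28.1 CPM in Runx1 c-k/o resting cells, and 34.4, 33.3 and 59.3 and then 7.27, 11.3 and 9.48 CPM at 3 h. The groups were far apart at both times, with Il9r lower by −2.25 log2 at rest and −2.18 log2 at 3 h (edgeR adjusted p = 0.0016 in each), although without both libraries that stood apart the 3-h difference, then −2.0 log2, was not called (0.070). Il9r is also on the study's list of genes called from these samples. On activation 3 of the 5 rose and 1 fell in each genotype, among them Il7r, the IL-7 receptor α-chain, by 5.80 log2, and Il15ra, which binds IL-15, by 1.81 log2 in Cre-only cells.

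The 4 other SOCS genes, Socs4 to Socs7, all rose on activation in both genotypes, Socs6 by 0.62 and Socs4 by 0.65 log2 in Cre-only cells. Socs5, which is reported to bind IL-4Rα, was called by genotype at 3 h, where it was at 35.2 CPM in Runx1 c-k/o against 57.9 CPM in Cre-only cells (−0.72 log2, edgeR adjusted p = 0.0083). Its call was lost when only the groups compared were fitted, although the difference was −0.70 log2 (0.10). Of 17 further genes known to respond to IL-4 and STAT6 in leukocytes, 15 were tested, and edgeR called 0 by genotype at rest or at 3 h (medians 0.32 and 0.30 log2), with 5 and 3 at an unadjusted p under 0.05. DESeq2's Wald test called 1 higher at each time. The median at rest was 0.06 log2 without resting replicate 2, and that at 3 h was 0.07 log2 without 3-h replicate 1, of the Runx1 c-k/o cells. On activation 12 rose and 2 fell in each genotype, with medians of 1.96 log2 in Cre-only and 2.14 log2 in Runx1 c-k/o cells, beside 0.03 and 0.00 over all genes. Il4i1, an amino acid oxidase named for its induction by IL-4, rose by 4.02 log2 in Cre-only cells (edgeR adjusted p = 1.9e-07), and Bcl6, the germinal center repressor, fell by 2.02 log2 (7.0e-08).
Of 6 genes that respond to STAT5 and other cytokine signals, Lta, the cytokine lymphotoxin α, was called by genotype, at 4.82 CPM in Runx1 c-k/o against 3.04 CPM in Cre-only cells at 3 h (0.67 log2, edgeR adjusted p = 0.041), a call kept in 10 of 21 alternatives and lost without 3-h replicate 1 (0.58 log2, 0.12). On activation 3 rose and 3 fell in Cre-only cells and 3 rose and 2 fell in Runx1 c-k/o cells. Ccnd2, cyclin D2, rose by 2.83 log2 and Bcl2, a survival factor, fell by 3.36 log2 in Cre-only cells.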

How the data were processed

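RNA-seq of 12 samples in 4 groups was analyzed, taken from the labels as genotype (CD23-iCre or Runx1-KO, called Cre-only and Runx1 c-k/o) and time (0 or 3 h). The authors added ERCC spike-in RNA, prepared stranded poly(A)-selected libraries, aligned the reads to mm9 (NCBIM37) with TopHat2 2.0.11 after CASAVA 1.8.4, both named in the submitters' processing notes, counted them on Ensembl genes with featureCounts, and deposited raw read counts per gene and sample without normalization. The strand setting and the handling of reads with several alignments are not given in the sources used here. The table holds 37991 identifiers, of which 37205 have a symbol in the annotation used here, and no spike-in row was used. Totals per sample were 14442251 to 23641552 counts, so that 3 counts, taken as the floor, equal 0.127 to 0.208 CPM. Floors and intervals from counts cover counting error only. The 9 members and the gene lists were chosen with earlier results of these data known.

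Tables were made in Python 3.11.15 with pandas 2.3.3 and scipy 1.17.1, and figures with matplotlib 3.10.9. In R 4.3.3, edgeR 4.0.16 (filterByExpr with a minimum of 10 counts, TMM, robust quasi-likelihood F test, 1 term per group, all 12 samples) was fitted to 13538 genes, with Benjamini-Hochberg adjustment over all of them and a threshold of 0.05. Standard errors and 95% intervals come from that fit and are not adjusted for the number of genes. RPKM was computed from the union of exons per 1000 bases. The study used DESeq2 with factors of unwanted variation, so the alternatives included the Wald test of DESeq2 1.42.0 and 1 RUVs factor, computed from replicate differences by its published definition, in edgeR and in DESeq2. The RUVs factor also differed between rest and 3 h, so activation changes fitted with it are not cleanly separate from it. The others were DESeq2's size factors, no filter, at least 10 counts in every sample, a block for the replicate number, a fit of the compared groups alone, and each of 12 samples left out in turn. Leaving out both libraries that stood apart was chosen after seeing the data. The models were tested on simulated data. Named pathway genes are those called by genotype and otherwise the 2 with the smallest adjusted p on activation in Cre-only cells. Genes most like a member are the 3 with the highest Pearson r of log2(CPM + 1). For Il13ra1, 1 of the 3 is not reported here. Other genes beside these were chosen after their values were seen.

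Whether same-numbered samples deviated together was checked between rest and 3 h. Their correlations were 0.33, 0.24 and 0.20 in Cre-only cells, above 0.1 in every pair. For the Runx1 c-k/o cells they were −0.37, −0.35 and 0.38. There the resting replicate 2 and the 3-h replicate 1, the libraries that stood apart, correlated at 0.59. With such libraries in the groups, these correlations cannot show whether the numbers pair samples in Runx1 c-k/o cells. The labels do not say it for either genotype.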

Additional observations from a re-analysis of the deposited data

How the results depend on the processing

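No called change of a member on activation was reversed under any alternative, and the calls by genotype varied most with the model and with the libraries that stood apart. Of 952 values of members under alternatives, 870 kept their direction and side of the threshold, 18 gained and 2 lost a call (both Socs2 in Cre-only cells, with a RUVs factor), and 62 reversed, none of them a called value in the fit reported. Genes called at rest (202) became 378 with DESeq2's Wald test, 524 and 611 with 1 RUVs factor in edgeR and DESeq2, and 81 to 598 when libraries were left out. Members called at rest (0) became 1, 1 and 2, and 0 to 2. Genes called at 3 h (375) became 709, 1036, 1230 and 180 to 914, and 158 with only the groups compared. Members called at 3 h (0) became 1 with either RUVs fit, and 0 to 1. Genes called in the interaction (11) became 83, 142, 253 and 4 to 187. The replicate block gave 140 genes at rest and 275 at 3 h with no member called, and the block within genotype, which pairs rest and 3 h, kept all 6 member calls in each genotype (Cish 6.98 log2, edgeR adjusted p = 6.3e-05, in Cre-only cells) and left 4 genes in the interaction. The block changed no call of a member. The cause of these moves was not tested. Reversed values on the log2 scale were as follows, and the 4 of Il2rg with a RUVs factor were called. For Il4ra in the interaction they were 0.015 (size factors), 0.024 (10 counts), 0.015 (Wald) and 0.00037 (RUVs in DESeq2), with −0.11 to 0.019 on leaving libraries out. For Il2rg on activation in Cre-only cells they were −0.081 (size factors), −0.029 (no filter), −0.16 (10 counts), −0.081 (Wald), −0.42 and −0.53 (RUVs), −0.00025 (block) and −0.066 (only the groups compared), with −0.048 to 0.040. In Runx1 c-k/o cells Il2rg gave −0.0090 (10 counts), −0.36 and −0.43 (RUVs), with −0.092 to 0.21, and −0.045 to 0.20 in the interaction. For Fcer2a on activation in Cre-only cells they were −0.059 (size factors), −0.0071 (no filter), −0.13 (10 counts), −0.059 (Wald), −0.087 (RUVs in DESeq2) and −0.044 (only the groups compared), with −0.025 to 0.053, and in Runx1 c-k/o cells −0.0064 (size factors), −0.073 (10 counts), −0.0064 (Wald) and −0.037 (RUVs in DESeq2), with −0.091 to 0.13, and −0.070 to 0.097 in the interaction. Leaving libraries out gave −0.82 to 0.38 for Il13ra1 at 3 h, −0.25 to 0.66 for Socs1 and −0.18 to 0.055 for Socs2 at rest, −0.40 to 1.93 for Il2ra at rest, and −0.41 to 0.50 (Socs1), −0.11 to 0.20 (Socs3) and −2.02 to 0.35 (Il2ra) in the interaction. Il13ra1 could not be tested with at least 10 counts in every sample, Il2ra has no adjusted p in DESeq2's Wald test, the interaction needs all groups, and the block within genotype cannot compare genotypes. Depth limits Il13ra1 at 3 h and Cish at rest, where counts were few.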
